A study of Mus musculus with 2 samples.

Results

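Mir92b, Mir135a-1, Mir135a-2 and Mir135b are 4 of the 2202 microRNA genes counted in the left cerebral cortex of newborn mice. They were chosen by name, through the GENCODE M21 symbols of the gene IDs in the count tables. The rule uses no measured value, but it was set with earlier results of these data known. The tissue came from female B6CASTF1/J mice aged 4 days, the hybrid of a C57BL/6 and a castaneus parent, with no treatment named in the labels. Per the labels there is 1 group with 2 biological replicates, each 1 library of RNAs shorter than 30 bases from an animal with its own number, though a single donor record covers the 2. The comparisons are therefore between genes within each library and between the 2 animals, and there is no test between conditions.

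A microRNA is cut from a hairpin in its primary transcript by the nucleases Drosha and Dicer, which can leave a mature product from the 5′ arm, the 3′ arm or both. The product guides Argonaute to messages that pair with its seed, bases 2 to 8, so genes whose products share a seed are grouped as a family. In mouse cortex, miR-92b is known to limit the transcription factor Tbr2 (Eomes) and with it the number of intermediate progenitors, the dividing cells that give rise to many cortical neurons. In mouse, Mir135a-2 is known as a target of Lmx1b in midbrain development, and miR-135 as a regulator of serotonin signalling in serotonergic neurons. In human cells, miR-135b is known as a PAX6 target that favours neuroectoderm. These are roles from other experiments. Bulk tissue does not say which cells made the RNA, and fewer cells of a type cannot be told apart from less RNA per cell, so the name "progenitor-linked" could not be checked against these libraries.

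The mature products are shown because their seeds define the families, and whole copies of a product in other hairpins bear on which reads map uniquely. All 4 genes matched the RefSeq table on GRCm38.p6, the build also called mm10, with 7 mature entries. Sequences run 5′ to 3′, and capitals mark the seed.
miR-92b-3p: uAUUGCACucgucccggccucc
miR-92b-5p: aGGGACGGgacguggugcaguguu
miR-135a-5p: uAUGGCUUuuuauuccuauguga
miR-135a-1-3p: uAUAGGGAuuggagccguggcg
miR-135a-2-3p: uGUAGGGAuggaagccaugaa
miR-135b-3p: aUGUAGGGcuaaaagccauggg
The seed of miR-92b-3p recurred in 6 other genes of that table, and the seed of miR-92b-5p in none. Among the mature entries, the seed of miR-135a-5p was found in Mir135a-1 and Mir135a-2, since both hairpins hold the whole 23-base product. The 3 3′-arm products of the Mir135 genes had 3 different seeds, each found in no other gene of the table. The RefSeq table had no mature entry for miR-135b-5p, so Mir135b could not be counted for a seed of its 5′ arm.

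The other products with the miR-92b-3p seed are shown to compare their bases beyond the seed.
miR-92a-3p: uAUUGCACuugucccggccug
miR-25-3p: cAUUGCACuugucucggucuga
miR-32-5p: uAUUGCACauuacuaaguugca
miR-363-3p: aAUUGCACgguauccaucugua
miR-367-3p: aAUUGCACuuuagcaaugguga
With positions counted from 1 at the 5′ end and the base of miR-92b-3p written first, miR-92a-3p differed from it by C10U and C21G over 21 bases. miR-25-3p differed at 6 of 22 bases, miR-32-5p at 11, and miR-363-3p and miR-367-3p at 12 each. miR-92a-3p is the closest of the 5, and it is made from 2 genes, Mir92-1 and Mir92-2.

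The Mir135 hairpins are shown with the bases that match miR-135a-5p in capitals, and the Mir92b hairpin with its 2 mature products in capitals.
Mir135a-1: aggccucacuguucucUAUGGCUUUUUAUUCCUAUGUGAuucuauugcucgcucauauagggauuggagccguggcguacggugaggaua
Mir135a-2: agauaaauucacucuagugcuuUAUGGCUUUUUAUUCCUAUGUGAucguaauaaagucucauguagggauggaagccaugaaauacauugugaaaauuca
Mir135b: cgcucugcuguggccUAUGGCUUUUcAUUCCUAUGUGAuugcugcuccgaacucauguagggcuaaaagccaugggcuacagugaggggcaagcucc
Mir92b: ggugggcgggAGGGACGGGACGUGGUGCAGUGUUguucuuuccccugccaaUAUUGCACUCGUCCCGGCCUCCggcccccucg
The stretch of Mir135b aligned with miR-135a-5p differed from it by 1 base, U11C. That base lies outside the seed, so Mir135b holds the seed bases of miR-135a-5p at the aligned place. Mir135a-1 and Mir135a-2 share an unbroken stretch of 24 bases, 1 longer than the 23-base product. A read that lies inside this stretch maps to both genes alike, and reads mapped to several places stand in a separate total and are assigned to no gene. The counts of Mir135a-1 and Mir135a-2 therefore leave out such reads. Among 1004 other hairpins, the longest stretch shared with Mir135b was 14 bases (with Mir135a-1) and with Mir92b 12 bases. Stretches outside annotated hairpins were not searched, since no genome sequence was used here.

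Mir92b (ENSMUSG00000076255.2) is on chromosome 3, minus strand, 89227116 to 89227198 of mm10. It overlaps no other annotated gene. Its nearest neighbours are Mtx1, a mitochondrial import protein gene on the same strand that starts 28 bases away, and Thbs3, a thrombospondin gene on the opposite strand that ends 279 bases away. Mir135a-1 (ENSMUSG00000065407.1) is on chromosome 9, plus strand, 106154124 to 106154213. It sits in an intron of the antisense transcript D030055H07Rik and across an untranslated exon part of Glyctk, the glycerate kinase gene, which runs on the opposite strand. Mir135a-2 (ENSMUSG00000065524.1) is on chromosome 10, minus strand, 92072086 to 92072185, within an intron of the long noncoding RNA gene Rmst on the same strand. Mir135b (ENSMUSG00000065435.1) is on chromosome 1, plus strand, 132198088 to 132198184, within an intron of Lemd1 and of the overlapping model AC124108.1, both on the same strand.

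The hairpins differed in composition. Mir92b is 83 bases long with 67.5% G and C, at percentile 95.1 of 1005 mouse hairpins in the table. Mir135a-2 is 100 bases long with 33.0% G and C, at percentile 2.29. Mir135a-1 (90 bases, 46.7%) and Mir135b (97 bases, 53.6%) lay nearer the median of 51.7%. The predicted folding energy was -52.7 kcal/mol for Mir92b, -48.7 for Mir135b, -43.5 for Mir135a-1 and -34.5 for Mir135a-2, against a median of -32.0 over all hairpins. These totals are not divided by length, and the median hairpin has 79 bases. Per base the energy was -0.635 for Mir92b, -0.502 for Mir135b and -0.483 for Mir135a-1, against a median of -0.406. Mir135a-2, at -0.345 per base, was weaker than that median. The 2 hairpins with the common 5′ product, Mir135a-1 and Mir135a-2, thus differed in G and C content and folding energy.

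Replicate 1 held 3555469 counts on the annotated strand of microRNA genes and replicate 2 held 2761003, and CPM are counts per 1000000 of these. Reads mapped to several places were 45.8% of all reads in replicate 1 and 41.0% in replicate 2. Genes at 2 CPM or more in each library were called detected, which 20.4% of all 2202 genes met. As a check of the labelled tissue, neuron-enriched genes held 8.19% ± 1.57 of counts (SD, n = 2), with 11 of 14 detected. Much of this lay in 2 genes, Mir139 with a mean of 23650 CPM and Mir149 with 20893, of 81882 CPM for the list. Genes with copies in this list, such as those of Mir124a, Mir128, Mir138 and Mir129, may lack reads that mapped to several places. Hox cluster genes, which mark hindbrain and spinal cord, were at 0.00732% ± 0.000765, with 2 of 5 detected. Markers of other cell types differed between the animals. Choroid plexus and ciliated cell genes (5 of 7 detected) held 0.523% in replicate 1 and 0.279% in replicate 2, and epithelial genes (6 of 7) 0.248% and 0.0361%. Red cell genes (3 of 3 in the tables) held 0.00602% and 0.0550%, vessel genes (3 of 3) 1.63% and 2.38%, and oligodendrocyte genes (3 of 3) 0.0913% and 0.0613%. Microglia and leukocyte genes (5 of 5) held 0.110% and 0.119%. None of the genes in these 6 lists was at 0 in both libraries.

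All 4 genes reached 2 CPM in each library, the minimum for calling a gene detected, which 20.4% of the 2202 genes met. Mir92b was the most abundant, with 19186 counts in replicate 1 and 10020 in replicate 2, or 5396 and 3629 CPM. It stood at rank 40 of 2202 in replicate 1 and rank 54 in replicate 2. Its mean was 4513 ± 1250 CPM (SD, n = 2), or 0.451% ± 0.125 of microRNA counts. The counting interval was 0.532% to 0.547% in replicate 1 and 0.356% to 0.370% in replicate 2 (95% Wilson), so the 2 animals differed by more than counting error.

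Mir135b had 2021 counts in replicate 1 and 2384 in replicate 2, or 568 and 863 CPM, with a mean of 716 ± 209 CPM. It stood at ranks 133 and 114, and here replicate 2 was the higher animal. Mir135a-1 had 702 and 543 counts, or 197.4 and 196.7 CPM, at ranks 186 and 183, and its mean was 197.1 ± 0.548 CPM. Mir135a-2 had 323 and 276 counts, or 90.8 and 99.96 CPM, at ranks 228 and 216, and its mean was 95.4 ± 6.45 CPM. Both Mir135a genes were at nearly the same level in the 2 animals, with counting intervals that overlap. For Mir135a-1 these were 183 to 213 CPM and 181 to 214 CPM, and for Mir135a-2 81.5 to 101.3 CPM and 88.8 to 112.5 CPM.

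**Figure D1:**
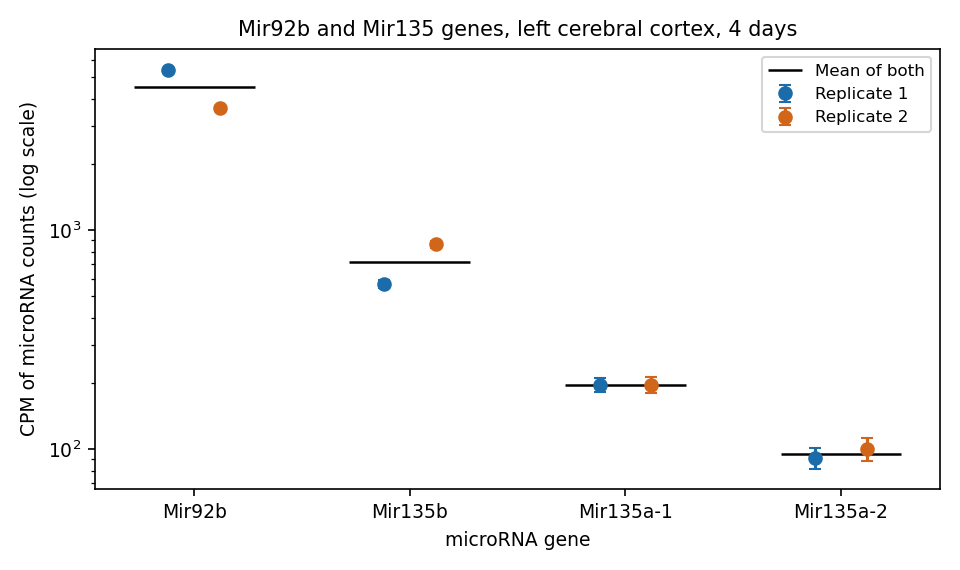
CPM of microRNA counts on a log scale for the 4 genes, with a point per animal, error bars for the 95% Wilson counting interval and a black line for the mean of both. The order Mir92b, Mir135b, Mir135a-1, Mir135a-2 holds in each animal, and only Mir92b and Mir135b have animals whose intervals are apart.

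The order Mir92b, Mir135b, Mir135a-1 and Mir135a-2 was the same in each library, and no 2 neighbours overlapped across the animals. The number of reads of a mature product does not grow with the hairpin's length, so CPM were not divided by length. Per 100 bases of hairpin the mean levels were 5437, 738, 219 and 95.4 CPM in that order. Levels of Mir135a-1 and Mir135a-2 leave out reads of the 5′ product that both share, so their distance from Mir135b is uncertain.

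Ratios within a library do not depend on scaling. Mir92b had 9.49 times the counts of Mir135b in replicate 1 (95% exact interval 9.07 to 9.94) and 4.20 times in replicate 2 (4.02 to 4.40). Mir135b had 2.88 times the counts of Mir135a-1 in replicate 1 (2.64 to 3.14) and 4.39 times in replicate 2 (4.00 to 4.83). Both ratios differed between the animals by more than counting error, in opposite directions. Mir135a-1 had 2.17 times the counts of Mir135a-2 in replicate 1 (1.90 to 2.49) and 1.97 times in replicate 2 (1.70 to 2.28), intervals that overlap.

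Over the 3 Mir135 genes the sum was 857 CPM in replicate 1 and 1160 CPM in replicate 2, a mean of 1008 ± 215 CPM. Mir135b made up 66.3% of that sum in replicate 1 (64.7 to 68.0) and 74.4% in replicate 2 (72.9 to 75.9). Mir135a-1 made up 23.0% and 17.0%, and Mir135a-2 10.6% and 8.62%. Mir135a-1 and Mir135a-2 together had 288 and 297 CPM. Among reads assigned to a gene, the difference in the sum between animals thus lay in Mir135b. The sum leaves out reads of the 5′ product that Mir135a-1 and Mir135a-2 share. With those reads, whose number is not known, the share of Mir135b would be lower, and the intervals do not cover this.

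Mir135a-1 has 1 microRNA neighbour within 50 kb, Mirlet7g, 24627 bases away on the same strand, within the span of Wdr82 on chromosome 9. Mirlet7g stood at 86526 ± 10624 CPM, and had 400.2 times the counts of Mir135a-1 in replicate 1 (372 to 432) and 478 times in replicate 2 (440 to 521). Mir92b, Mir135a-2 and Mir135b had no other annotated microRNA gene within that distance.

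Among the 7 genes whose product has the miR-92b-3p seed, Mir92b had the most counts. It made up 67.9% of the family's counts in replicate 1 (67.3 to 68.4) and 65.8% in replicate 2 (65.1 to 66.6), a mean of 66.8% ± 1.45. Mir92-1, of the Mir17 cluster on chromosome 14, made up 27.1% and 28.3%, with 7671 and 4304 counts, or 2158 and 1559 CPM. Mir25, in the Mir106b cluster inside Mcm7, made up 3.37% and 3.91%, with 954 and 596 counts, or 268 and 216 CPM. The counting intervals of the shares of Mir92b and of Mir25 did not overlap between the animals.

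The other members were low. Mir32, in an intron of Tmem245, had 254 and 184 counts, or 71.4 and 66.6 CPM. Mir92-2 had 133 and 69 counts, or 37.4 and 24.99 CPM, and its neighbour Mir363 on the X chromosome had 72 and 51, or 20.3 and 18.5 CPM. Mir92-2 and Mir363 followed each other in the order, and in replicate 2 their counting intervals overlapped. Mir367, a neighbour of the Mir302 genes of pluripotent cells, had no read in either library, and 3 counts, the most that a count of 0 allows, would be 0.844 CPM in replicate 1 and 1.09 in replicate 2.

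**Figure D2:**
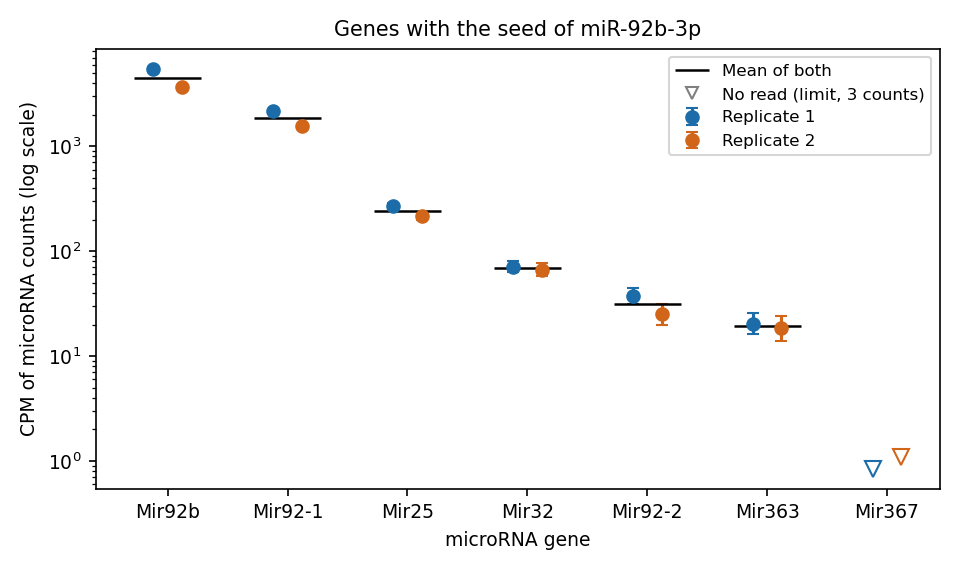
CPM of microRNA counts on a log scale for the 7 genes with the miR-92b-3p seed, with a point per animal, 95% Wilson counting intervals and a line for the mean. Open triangles mark the limit that 3 counts set where no read was found. Replicate 1 is the higher animal for the 6 genes with reads, and Mir92b leads in both.

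Mir92b had 2.50 times the counts of Mir92-1 in replicate 1 (2.44 to 2.57) and 2.33 times in replicate 2 (2.25 to 2.41). Mir92-1 and Mir92-2 share a stretch of 22 bases that holds all of miR-92a-3p, so reads inside it are assigned to neither gene. With those reads, whose number the tables do not give, the share of Mir92b in the family would be lower. Without Mir92-1 and Mir92-2, an alternative chosen after seeing the data, it was 93.0%.

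The plot of levels by rank places these genes among the 450 detected ones. By mean level, Mir92b stood at rank 46, Mir135b at 122, Mir135a-1 at 190 and Mir135a-2 at 222 of all 2202 genes. The median of detected genes was 89.2 CPM, so Mir135a-2 lay close to it.

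**Figure D3:**
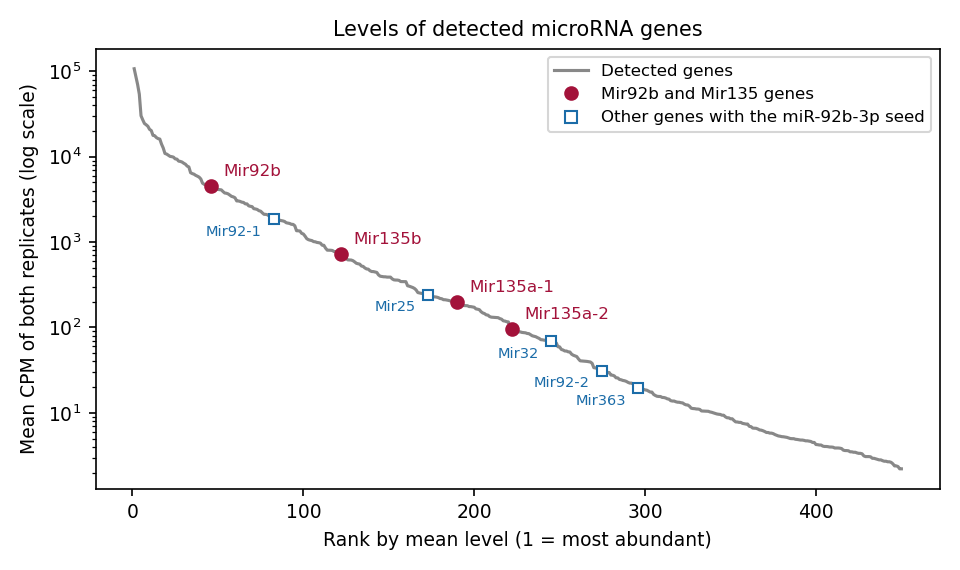
Mean CPM of both animals, on a log scale, against rank by mean level for the 450 genes detected in both libraries (grey line). Filled circles mark Mir92b and the Mir135 genes and open squares the other detected genes with the miR-92b-3p seed. Mir92b is at rank 46, and Mir135a-2 at rank 222 lies near the median of detected genes.

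Between the animals, Mir92b was 1.505-fold higher in replicate 1, a log2 ratio of replicate 2 over replicate 1 of -0.59 (95% exact counting interval -0.62 to -0.55). Mir135b was 1.501-fold higher in replicate 2, with a log2 ratio of 0.59 (0.50 to 0.67). Mir135a-1 had a log2 ratio of -0.02 (-0.19 to 0.14) and Mir135a-2 of 0.12 (-0.12 to 0.36), and both intervals spanned 0. With 1 library per animal these are differences between 2 libraries, and no test over animals is possible.

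None of the 4 genes reached a 2-fold difference. Of the 308 genes whose counts summed to 100 or more, 11.0% were higher in replicate 1 by 2-fold or more, and 4.87% were so in replicate 2. Counting intervals lay wholly below 0 for 44.5% of the 308 genes and wholly above 0 for 33.4%, so an interval that misses 0 was common. Of these genes 31.2% had a ratio at least as far from 1 as Mir92b, 31.8% as far as Mir135b, 84.1% as far as Mir135a-2 and 97.7% as far as Mir135a-1. The median log2 ratio of all 308 was -0.09, and the middle of the distribution ran from -0.47 to 0.24 (quartiles).

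**Figure D4:**
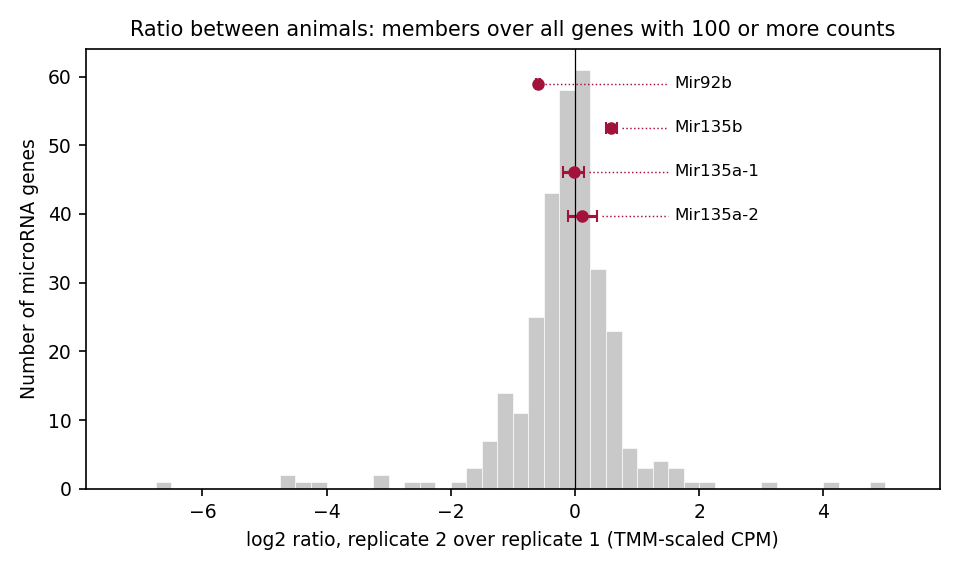
Log2 ratio of replicate 2 over replicate 1 on TMM-scaled CPM for the 308 genes whose counts summed to 100 or more (grey bars, number of genes), and for the 4 genes (points with 95% exact counting intervals, placed at arbitrary heights). Mir92b at -0.59 and Mir135b at 0.59 lie on opposite sides of 0, and Mir135a-1 and Mir135a-2 have intervals that span 0.

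The other genes with the miR-92b-3p seed lay on the same side as Mir92b. All 5 of the others that were detected had log2 ratios below 0, with a median of -0.33 against -0.09 over the 308 genes. The median of the 308 genes was thus below 0 too, and the share of them below 0 was not counted. Intervals lay wholly below 0 for 3 of the 5, beside 44.5% of the 308 genes, and the median and counts are descriptions without a test. Mir92-1 was at -0.49 (-0.54 to -0.43), Mir92-2 at -0.59 (-1.04 to -0.17) and Mir25 at -0.33 (-0.48 to -0.18). The ratios of Mir92-1 and Mir92-2 leave out reads inside the stretch they share, which holds all of miR-92a-3p, so they may not hold for that product. Mir32 was at -0.12 (-0.40 to 0.16) and Mir363 at -0.15 (-0.70 to 0.39). Within the Mir17 cluster, Mir18 was on the same side as Mir92-1, at -0.13 (-0.20 to -0.05), while Mir17 and Mir20a were higher in replicate 2 with log2 ratios of 0.37 (0.35 to 0.40) and 0.40 (0.36 to 0.45). The other genes of that cluster, Mir19a (5 and 12 counts) and Mir19b-1 (4 and 2), were not called detected. Mir19a reached 2 CPM only in replicate 2, and Mir19b-1 in neither library. The cluster's genes are known to be cut from 1 primary transcript.

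Base composition was set beside the ratio across genes. Over the 266 of 308 genes with a hairpin in the table, the log2 ratio and the G and C content of the hairpin had a Pearson r of -0.03 and a Spearman rho of -0.06, as a description across genes that share both libraries. The 11 genes with at least the G and C content of Mir92b had a median log2 ratio of -0.16, and the others -0.09. Over the 525 genes whose counts summed to 10 or more, the median log2 ratio was -0.05, slightly toward replicate 1. The share of these genes below 0 was not counted. Higher in replicate 1, the animal with more Mir92b, were 7 of 7 epithelial and 5 of 6 choroid plexus and ciliated cell genes. Also higher there were 10 of 14 neuron-enriched genes. Of the 5 microglia and leukocyte genes, 2 were higher in replicate 1 and 3 in replicate 2. The sum of these 5 was slightly higher in replicate 2 (1104 and 1185 CPM). The oligodendrocyte sum was higher in replicate 1, carried by Mir338 (735 and 439 CPM). Mir219a-1 was higher in replicate 2 (45.8 and 73.2 CPM). The red cell sum was higher in replicate 2, the animal with more Mir135b, mostly through Mir451a (16.9 and 491 CPM), while Mir486 had 36.8 and 30.4 CPM. The vessel sum was higher there through Mir126a and Mir143, while Mir145a was higher in replicate 1 (139.8 and 97.8 CPM). The part of these cells in either difference was not tested.

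A list of 23 other genes known from neural progenitors, proliferating cells or pluripotent cells held 2.28% of counts in replicate 1 and 2.51% in replicate 2. It held the Mir9 genes, the Mir17, Mir106b and Mir106a clusters, and the Mir302 genes with Mir367. Of these, 16 of 23 were detected, beside 20.4% of all genes, with a median of 128.9 CPM against 89.2 over all detected genes, and 1 had no read. Its leading genes were Mir17 with 8800 ± 1680 CPM, then Mir93 (6495 ± 144), Mir106b (2934 ± 154) and Mir20a (2331 ± 478). Mir92b lay between Mir93 and Mir106b. Of the 19 whose counts summed to 10 or more, 10 were higher in replicate 1 and 9 in replicate 2. Their median log2 ratio was -0.10, against -0.05 over 525 genes. None of the 13 with 100 or more was 2-fold apart, beside 15.9% of the 308 genes. Mir92b had 0.709 times the counts of Mir17 in replicate 1 (0.696 to 0.722) and 0.363 times in replicate 2 (0.355 to 0.372).

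The genes nearest to each by level were found by the Euclidean distance over log2(CPM + 1) in the 2 libraries, a measure of level and not of regulation. For Mir92b these were Mir26b (5519 and 3883 CPM, distance 0.10), Mir676 (0.16) and Mir128-2 (0.22), the last of these a neuron-enriched gene. For Mir135b they were Mir671 (657 and 947 CPM, 0.25), Mir146 (0.28) and Mir667 (0.34). For Mir135a-1 they were Mir3475 (0.10), Mir873a (0.11) and Mir9-3 (0.12), 1 of the 3 genes for miR-9, a microRNA of neural progenitors. For Mir135a-2 they were Mir1193 (0.15), Mir467c (0.15) and Mir374b (0.20). Neither Mir92-1 nor another Mir135 gene was among the 3 nearest of any of the 4. Mir135a-1 and Mir9-3 are each 1 of several copies, so their nearness in assigned reads may not hold for all reads of miR-135a and miR-9.

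No read was counted on the opposite strand of any of the 4 genes in either library. This includes Mir135a-1, which runs against Glyctk.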

How the data were processed

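Per the labels, small RNA libraries were made from 2 animals of 1 group. The authors deposited whole-number read counts per microRNA gene, 1 unpooled table per library without column names, on mm10 with GENCODE M21, per the notes that accompany each table. Trimming, filters, aligner and counter are not given in the sources used here. Column 3 was read as the annotated strand from the layout and values. A gene's count adds both arms of its hairpin, so the arms could not be told apart.

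CPM were computed here from those deposited counts over 2202 genes. Rows of unmapped, repeatedly mapped, unassigned and ambiguous reads did not enter library sizes, and made up 69.6% of reads in replicate 1 and 72.2% in replicate 2. Log2 ratios used TMM factors of edgeR 4.0.16 with 0.5 added to each count. Their calculation was checked on simulated counts with known folds. That simulation held counting error only, so it does not cover variation between animals or from amplification. Shares have 95% Wilson intervals, and ratios exact (Clopper-Pearson) intervals from scipy 1.17.1. A count of 0 allows up to 3 counts. Intervals and limits cover counting error only, since amplified reads are not independent molecules. Hairpins were folded with ViennaRNA 2.7.2, and sequences came from RefSeq (GRCm38.p6). Named genes were the 4 members, genes with their seeds, microRNA neighbours within 50 kb, the 3 nearest genes by level, and leading genes of fixed lists. One list symbol, Mir486b, matched no gene. The members and lists were chosen with earlier results of these data known. No test between groups was possible with 1 group, and the effect of castaneus variants on mapping was not tested. Alternatives changed the strand column, scaling, added count, minimum and replicates.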

Additional observations from a re-analysis of the deposited data

How the results depend on the processing

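The levels depend on what they are set against. Per 1000000 of all reads, unmapped and repeatedly mapped ones included, Mir92b had a mean of 1325 and the Mir135 sum 291.5, against 4513 and 1008 CPM of microRNA counts. Without replicate 1 or without replicate 2, the level of Mir92b was 3629 or 5396 CPM, the Mir135 sum 1160 or 857 CPM, and the share of Mir92b in its seed family 65.8% or 67.9%. That share was 93.0% without Mir92-1 and Mir92-2, since fewer genes then enter the sum. The number of genes at least 2-fold apart between the animals was 49 at a summed count of 100 or more, 88 at 20 or more and 311 at 1 or more. The log2 ratios of the 4 genes kept their sign under RLE factors, library size, other added counts and either strand, and all 4 were detected at 1 and 5 CPM and with any read. How many reads of the 5′ product shared by Mir135a-1 and Mir135a-2 were assigned to neither gene is not given by the tables.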
